A study of Oryza sativa Japonica Group with 6 samples.

Results

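Nitrate reductase and the ammonium transporters act on routes by which a plant cell can obtain ammonium. Their transcripts were described here in a pair of accessory cell types of the rice embryo sac. The genes were chosen by name: every gene whose symbol or synonym, without a leading Os, is AMT or NIA followed by a number. The rule found 10 genes, 9 ammonium transporter genes and 1 nitrate reductase gene, NIA1. Of these, 9 genes had a probe set of their own, 12 probe sets in all of 57258 non-control probe sets, and 17905 genes in all had one. OsAMT1;3 (LOC4330007) had none and is not analysed here. No probe set was shared between one of the 10 genes and another gene.

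Synergid cells sit beside the egg cell, where the pollen tube enters the embryo sac, and antipodal cells lie at its opposite, chalazal end, next to the tissue through which the ovule is supplied. The study compared 3 arrays of synergid cells with 3 arrays of antipodal cells, all from wild-type rice (Oryza sativa ssp. japonica, cultivar Katy) kept in a greenhouse and dissected from florets at anthesis without enzymes. The RNA was amplified in a 2-cycle protocol and hybridised to Affymetrix rice arrays, which report a signal in arbitrary units for each probe set. The protocol counts egg cells and zygotes, so the number of synergid or antipodal cells behind each hybridisation is unknown here. The arrays of a cell type are labelled as biological replicates without naming separate plants or days, so the spread between them may be partly technical. Fewer cells of a type and less RNA per cell cannot be told apart in such samples. No named probe set matched the synergid markers searched for, and no antipodal marker was searched for, so neither cell label was checked against markers.

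Ammonium transporters are membrane proteins of the AMT family that move ammonium into cells. Plants have an AMT1 subfamily, with high affinity for ammonium, and a second subfamily that in rice holds the AMT2 and AMT3 genes. Nitrate reductase is the cytosolic enzyme, dependent on a molybdenum cofactor, that turns nitrate into nitrite. Nitrite reductase then makes ammonium in plastids, and glutamine synthetase and glutamate synthase build it into amino acids. Rice grown in flooded soil takes up much of its nitrogen as ammonium.

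The median signal of the non-control probe sets lay between 46.5 and 67.1 on the synergid arrays and between 54.4 and 170.3 on the antipodal arrays, with antipodal array 2 the highest. That array also had the brightest hybridisation controls (60392, against 6311 to 12463 on the other 5) and correlated least with every other array, with a Pearson r across tested probe sets of 0.734 to 0.783. For synergid array 1 the r was 0.889 with synergid array 2 and 0.930 with synergid array 3, and 0.923 with antipodal arrays 1 and 3 alike. Results are also given without single arrays.

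NIA1 (LOC4345795), the nitrate reductase gene, had lower signal in synergids than in antipodals on its brighter probe set, Os.4717.1.S1_at. The signal was 2570.4, 186 and 737 on synergid arrays 1, 2 and 3, against 8757, 5891 and 5629 on antipodal arrays 1, 2 and 3. The cell types did not overlap, and synergid array 1 lay closest to the antipodal range. Synergids averaged 1165 ± 1248 and antipodals 6759 ± 1735 (SD, n = 3 each). On the log2(signal + 16) scale the difference was -3.18 (SE 0.65), a geometric mean 9.05-fold lower in synergids. Without synergid array 1 the log2 difference was -4.09, and without synergid array 2 it was -2.25. Without antipodal array 2 it was -3.26.

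The second probe set of NIA1, Os.4717.2.A1_at, was dim and did not separate the cell types. Its signal was 54.2, 6.42 and 76.2 on the synergid arrays, against 133, 36.1 and 44.7 on the antipodal arrays. Synergid array 2 was the lowest for both NIA1 probe sets and antipodal array 1 the highest. The log2 difference was -0.57 (SE 0.86), smaller than its error, and without synergid array 2 it was 0.05.

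OsAMT1;1 (LOC4336365, also listed as OsAMT1) is a transporter of the high-affinity subfamily, known in rice from both roots and shoots. Its brighter probe set, Os.1193.1.S1_at, gave 773, 246 and 435 on synergid arrays 1, 2 and 3, against 3063, 1217 and 2393 on antipodal arrays 1, 2 and 3. All 3 synergid arrays lay below all 3 antipodal arrays. Synergids averaged 485 ± 267 and antipodals 2224 ± 935 (SD, n = 3 each), with a log2 difference of -2.21 (SE 0.49), a geometric mean 4.61-fold lower in synergids. With each array left out in turn the log2 difference lay between -2.61 and -1.81. The dim probe set, Os.1193.2.S1_at, gave 6.60, 18.5 and 11.7 on the synergid arrays, against 20.4, 43.8 and 32.8 on the antipodal arrays. These did not overlap either, but the probe set was among the dimmest 40% left out of the fit, and antipodal array 1, the highest on the brighter probe set, was the lowest of the antipodal arrays here.

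**Figure D1:**
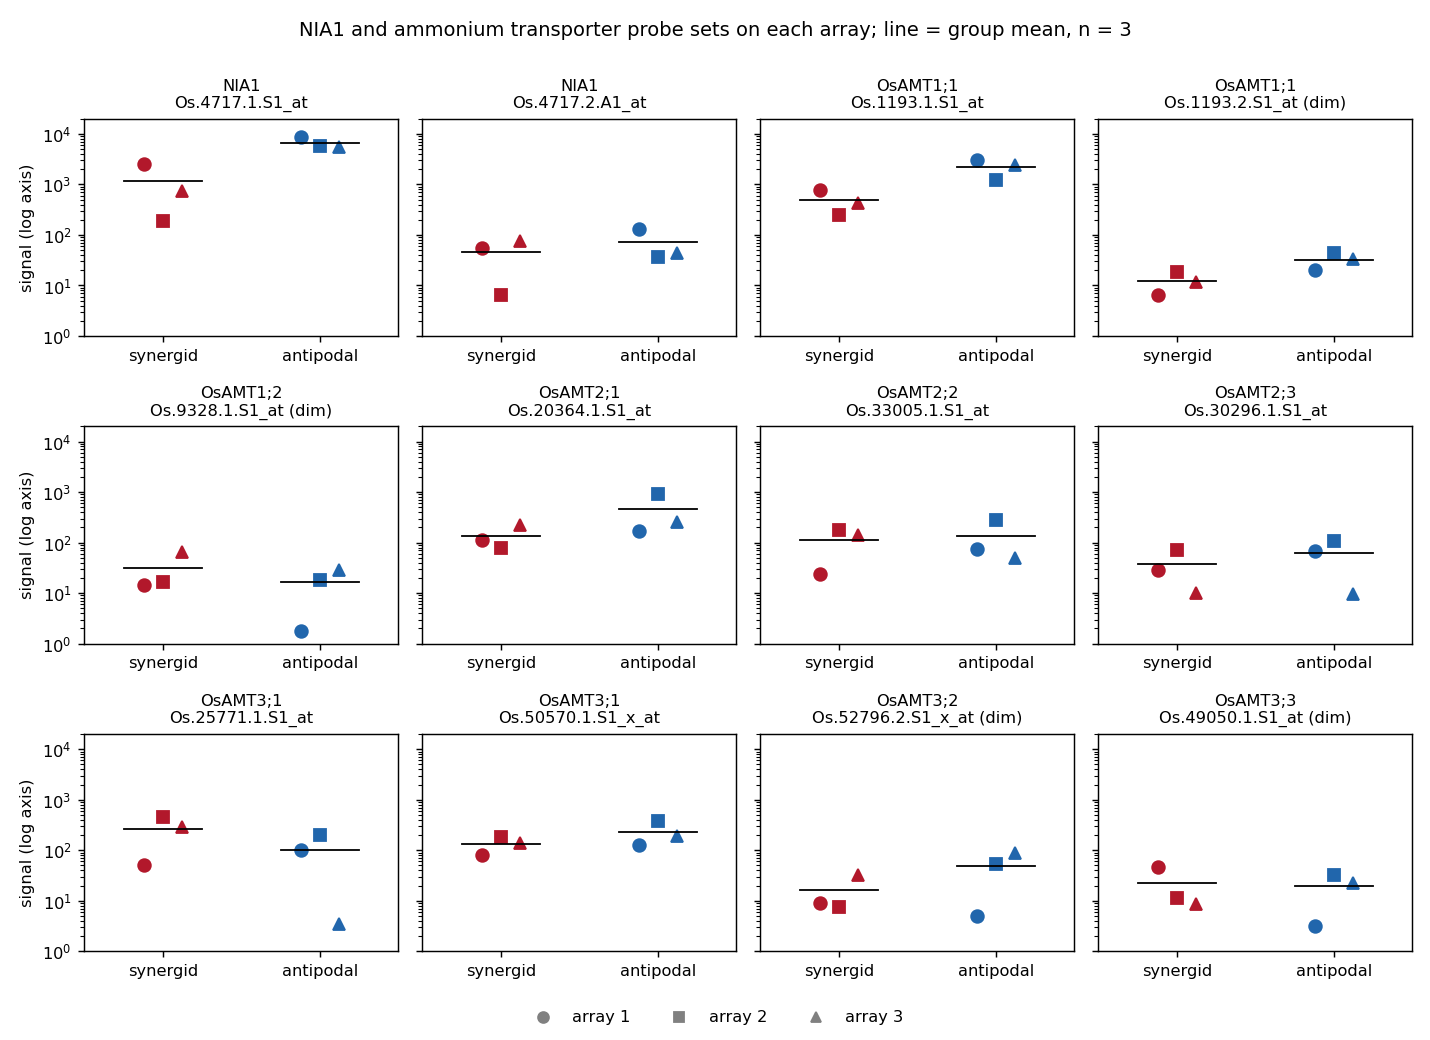
Signal (log axis, arbitrary units) of the 12 probe sets on each array, synergid arrays left and antipodal arrays right in each panel; symbols mark arrays 1, 2 and 3, lines mark group means, and dim marks probe sets left out of the fit. The brighter probe sets of NIA1 and OsAMT1;1 lie lower on every synergid array than on any antipodal array, while the AMT2 and AMT3 probe sets overlap; signals of different probe sets are not comparable as amounts of transcript.

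On their brighter probe sets NIA1 and OsAMT1;1 also varied alike within the synergids. For both, synergid array 1 was the highest of its group and synergid array 2 the lowest. Between those arrays NIA1 spanned 2570.4 to 186 and OsAMT1;1 spanned 773 to 246. In the antipodals array 1 was the highest for both, while the lowest was array 3 for NIA1 and array 2 for OsAMT1;1. The dim probe sets did not share the synergid order. There synergid array 3 was the highest for NIA1, and for OsAMT1;1 synergid array 2 was the highest and array 1 the lowest.

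**Figure D2:**
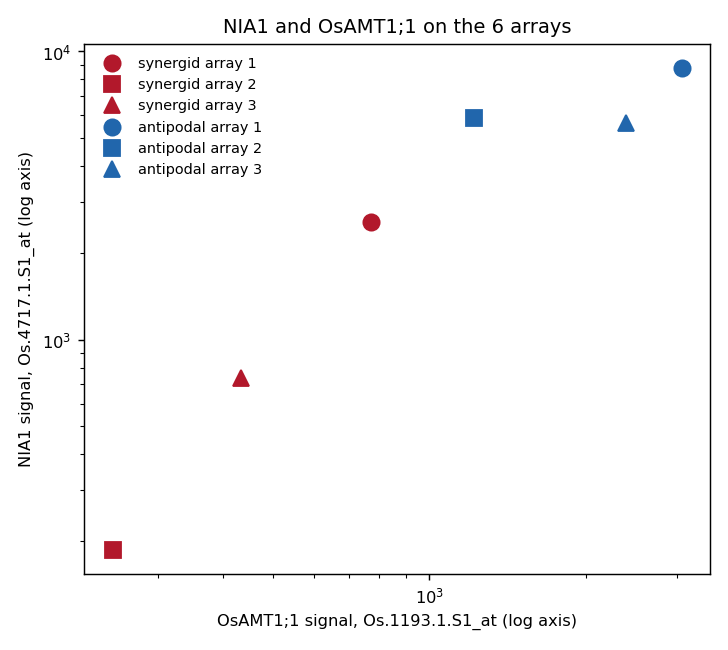
Signal of NIA1 (vertical, log axis) against signal of OsAMT1;1 (horizontal, log axis) on the 6 arrays, with 1 point per array. Each gene is shown by its brighter probe set. The 3 synergid points lie at the lower left, in the order array 2, array 3, array 1 on both axes, and the 3 antipodal points lie at the upper right.

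Technical groupings of the arrays, found after the data were seen, did not turn either difference. Synergid 1 and antipodal 1 were deposited with at most 9 digits per value and the other 4 arrays with up to 10. Within the pair of arrays with fewer digits the log2 difference was -1.76 for NIA1 and -1.96 for OsAMT1;1. Within the other 4 arrays it was -3.89 and -2.33 for the same genes. Control RNAs added before amplification were brighter on synergid array 2 and antipodal arrays 2 and 3 (41189 to 134411, geometric mean of 12 probe sets) than on synergid arrays 1 and 3 and antipodal array 1 (3865 to 7597). Within the brighter 3 arrays the log2 difference was -4.83 for NIA1 and -2.72 for OsAMT1;1, and within the dimmer 3 it was -2.65 and -2.37. Of these subsets only the 4 arrays with more digits hold more than 1 array of each cell type, and none was tested on its own.

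OsAMT2;1 (LOC4339064, also listed as AMT2-1), on Os.20364.1.S1_at, had 113, 78.2 and 222 on synergid arrays 1, 2 and 3, against 169.9, 934 and 258 on antipodal arrays 1, 2 and 3. The cell types overlapped, since synergid array 3 was above antipodal array 1. Synergids averaged 138 ± 75.1 and antipodals 454 ± 418 (SD, n = 3 each), and the log2 difference was -1.35 (SE 0.70). Without antipodal array 2, the array that stood apart from the rest, the log2 difference was -0.66.

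OsAMT2;2 (LOC4327434) and OsAMT2;3 (LOC4327433) lie close together in the genome, with 2 genes listed between them in the RefSeq table of assembly ASM3414082v1, and neither separated the cell types. OsAMT2;2, on Os.33005.1.S1_at, had 23.4, 174 and 142 on the synergid arrays, against 73.6, 281 and 49.9 on the antipodal arrays. Its log2 difference of -0.19 (SE 0.85) was below its error and was 0.52 without synergid array 1 and 0.46 without antipodal array 2. OsAMT2;3, on Os.30296.1.S1_at, had 28.8, 72.0 and 9.91 on the synergid arrays, against 68.3, 110.0 and 9.78 on the antipodal arrays. Its log2 difference was -0.47 (SE 0.89), and it was -1.14 without antipodal array 3 and 0.004 without antipodal array 2. For both genes the highest array of each cell type was array 2.

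OsAMT3;1 (LOC4324937, also listed as AMT3-1) was read by a pair of probe sets whose differences had opposite signs. Os.25771.1.S1_at gave 52.2, 466 and 287 on synergid arrays 1, 2 and 3, against 102, 197 and 3.50 on antipodal arrays 1, 2 and 3. Its log2 difference was 1.45 (SE 0.96), and it was 0.44 without antipodal array 3, the lowest of the 6. Without synergid array 1 it was 2.28, and without antipodal array 2 it was 2.17. Os.50570.1.S1_x_at, whose suffix marks possible cross-hybridisation, gave 80.2, 179.6 and 137 on the synergid arrays, against 126, 388 and 190.0 on the antipodal arrays. Its log2 difference was -0.68 (SE 0.66). Both probe sets overlapped between the cell types, so no direction could be given for OsAMT3;1.

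The other 3 transporter genes had a mean signal over the 6 arrays among the dimmest 40% and were left out of the fit. OsAMT1;2 (LOC4330008), known in rice as a root transporter and read by Os.9328.1.S1_at, had 14.7, 16.4 and 65.3 on the synergid arrays, against 1.80, 17.9 and 29.1 on the antipodal arrays. In the gene table it is the direct neighbour of OsAMT1;3, the gene without a probe set, and both carry the synonyms AMT1-2 and AMT1-3. OsAMT3;2 (LOC4334717), read by Os.52796.2.S1_x_at, had 8.86, 7.39 and 32.1 on the synergid arrays, against 5.08, 52.6 and 89.6 on the antipodal arrays, and its suffix too marks possible cross-hybridisation. OsAMT3;3 (LOC4329628), read by Os.49050.1.S1_at, had 46.1, 11.3 and 8.66 on the synergid arrays, against 3.17, 32.4 and 22.4 on the antipodal arrays. Each of the 3 overlapped between the cell types. The deposited values carry no detection calls, so a low signal here does not show that a gene was silent.

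The genes were proposed with the synergid and antipodal values known, so their differences are a description and no p-value is given for them. Of the 12 probe sets, 8 were bright enough to be tested, covering 6 genes, and 0 of the 8 passed an adjusted p of 0.05 in limma's moderated test with Benjamini-Hochberg adjustment over all 34355 tested probe sets. Of all tested probe sets 0.320% passed (110), of which 88 (0.256% of all) were higher and 22 (0.0640%) lower in synergids. The count at an unadjusted p under 0.05 in limma was 2 of the 8, against 8.30% of all tested probe sets. The split of all calls was 73 higher and 3 lower after quantile normalisation and 75 higher and 1 lower after median centring. In 9 of 15 other settings 0 of the 8 were called. In the other 6 settings 1 or 2 were, always the brighter probe set of NIA1 and in 4 of them that of OsAMT1;1. The fit without synergid array 1, the highest synergid array for both of these probe sets, was among those 4. All such counts use the values known when the genes were chosen, and nothing is read from them. Groups did not overlap, with synergids lower, for 2 of the 8 tested probe sets, against 7.26% of all tested probe sets, and with synergids higher for 0 of the 8, against 6.17%. With the dim probe sets included there were 3 such of 12, against 7.79% of all non-control probe sets. The log2 difference was below 0 for 7 of the 8, against 54.7% of all tested probe sets, and for 6 of the 8 after quantile normalisation or median centring, where OsAMT2;2 turned positive. Among the 7, OsAMT2;3 and the dim NIA1 probe set had a mean log2 value in synergids below the filter cutoff. They were tested only through their brighter antipodal arrays, so the count depends in part on the filter. Median centring moved the median of all tested probe sets to 0.37, against -0.08 as deposited. Relative to that median 7 of the 8 were lower as deposited, a count that median centring cannot change, since it shifts every probe set alike. After quantile normalisation it was 6 of the 8, with OsAMT2;2 at 0.10. Among all tested probe sets 0.102% had a lower log2 difference than NIA1 and 0.806% a lower one than OsAMT1;1.

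**Figure D3:**
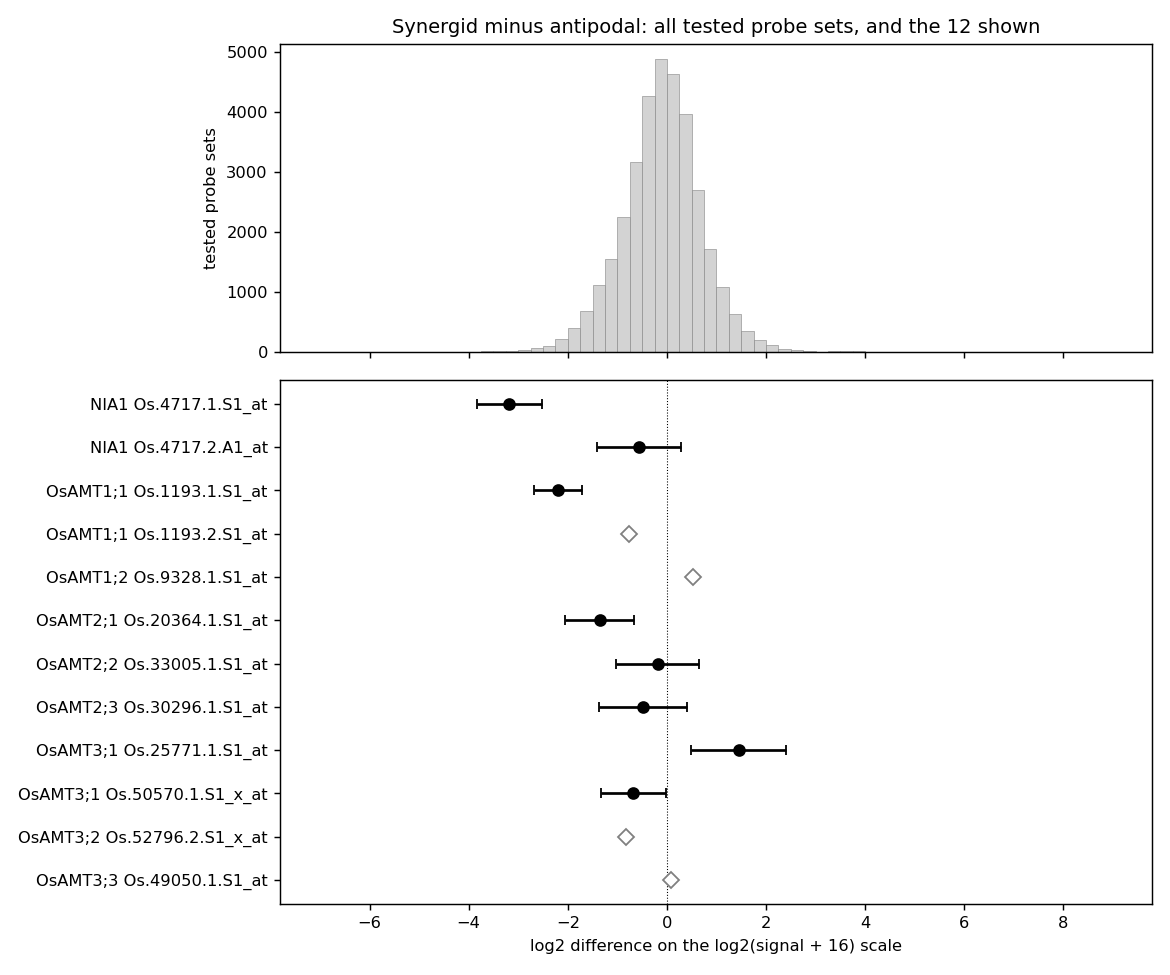
Top, histogram of the log2 difference (synergid minus antipodal, log2(signal + 16) scale) over the 34355 tested probe sets; bottom, the same quantity for the 12 probe sets of NIA1 and the ammonium transporters, with bars of 1 SE for the 8 that were tested and open diamonds for the 4 that were not. The brighter probe sets of NIA1 (-3.18) and OsAMT1;1 (-2.21) lie in the left tail, and the others lie between -1.35 and 1.45.

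**Figure D4:**
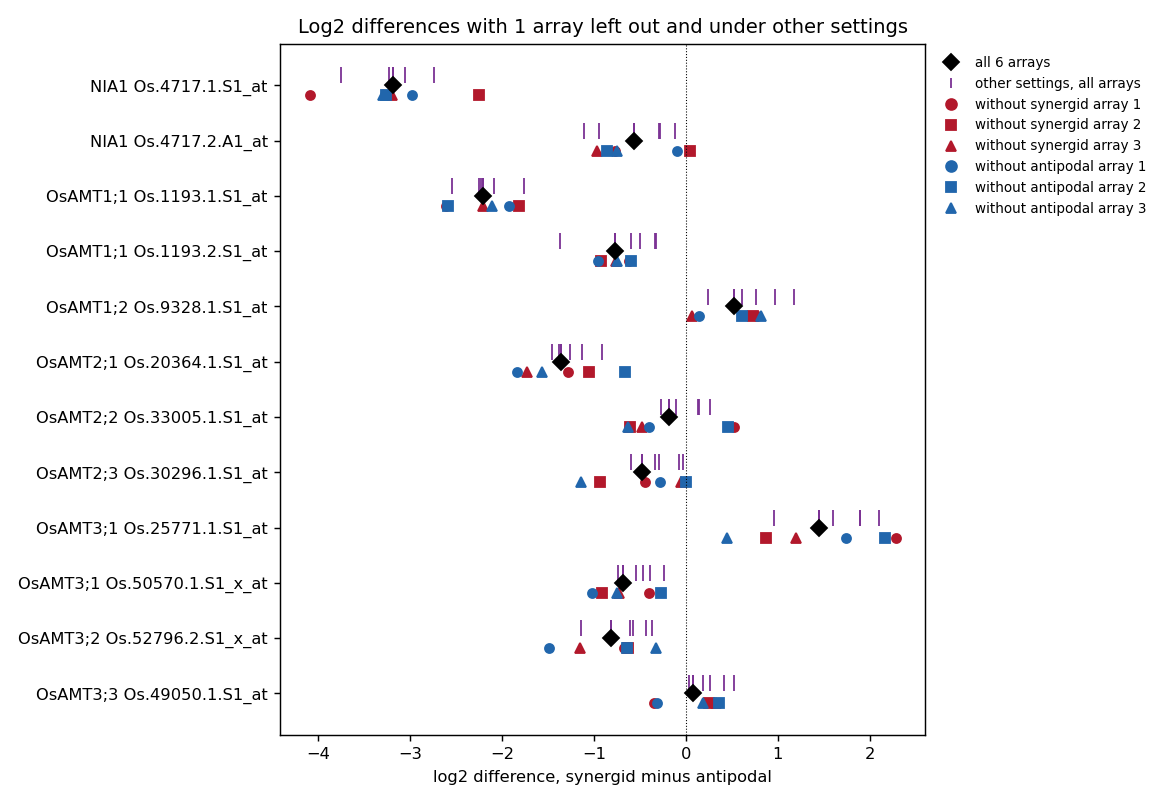
Log2 difference (synergid minus antipodal) of the 12 probe sets with all 6 arrays (black diamonds), with 1 array left out (red symbols for a synergid array, blue for an antipodal array) and under the other settings that use all arrays (purple ticks). The brighter NIA1 probe set stays between -4.09 and -2.25 and that of OsAMT1;1 between -2.61 and -1.76. OsAMT2;2, OsAMT2;3, OsAMT3;3 and the dim NIA1 probe set, Os.4717.2.A1_at, fall on both sides of 0.

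Other genes of nitrogen use had no call in either direction. Of 20 other nitrogen genes with a recognised name, 17 were tested, and 0 passed in limma in either direction, against the 0.320% of all tested probe sets. Of the 17, 2 had an unadjusted p under 0.05 in limma, against 8.30% of all tested probe sets. A log2 difference above 0 was found for 15 of the 17, while 54.7% of all tested probe sets lay below 0. The median log2 difference of the 17 was 0.22, against 0.01 over the 15936 tested genes. Relative to the median of all tested genes, 15 of the 17 were higher as deposited and 13 after quantile normalisation. Median centring moved the median of all genes to 0.45 and left the count at 15 by construction, since it shifts every gene alike.

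All 4 glutamine synthetase genes, whose product joins ammonium to glutamate, had differences above 0 and were not called. GLN1-2 (LOC4332108), a cytosolic form, had 12635, 12587 and 9146 on synergid arrays 1, 2 and 3, against 7879, 7883 and 6246 on antipodal arrays 1, 2 and 3. Those values did not overlap, but the log2 difference of 0.63 (SE 0.30) missed the threshold in limma (adjusted p = 0.608). GLN1-1, GLN1-3 and the plastid form GLN2 had log2 differences of 0.11, 0.03 and 0.19, each below its SE.

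Glutamate synthase, which completes the cycle by returning glutamate, was read by 2 genes. Fd-GOGAT (LOC4344164), the ferredoxin-dependent form, had 882, 2591 and 1587 on the synergid arrays, against 1204, 892 and 1779.6 on the antipodal arrays, with overlap (log2 difference 0.31, SE 0.44, limma adjusted p = 0.890). GLT2 (LOC4339561), which encodes an NADH-dependent form, was picked out after its values were seen as 1 of the 2 genes with an unadjusted p under 0.05. It had 2126, 2417 and 1825 on the synergid arrays, against 724, 358 and 1561 on the antipodal arrays. The cell types did not overlap, and the log2 difference was 1.49 (SE 0.47, limma adjusted p = 0.363).

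The second such gene was NLP3 (LOC4327787), of a family of regulators of nitrate-responsive transcription. It had 16581, 12097 and 15881 on the synergid arrays, against 5238, 5900.0 and 8829 on the antipodal arrays, without overlap (log2 difference 1.18, SE 0.31, limma adjusted p = 0.222). NLP1, NLP2 and GLB, a gene for the PII nitrogen sensor, had log2 differences of 0.22, 0.54 and 0.18, each below its SE. GDH2 (LOC4336554), a glutamate dehydrogenase gene, had a mean of 2908 ± 550.3 in synergids, against 2534 ± 1270.4 in antipodals (SD, n = 3 each; log2 difference 0.30, SE 0.39, limma adjusted p = 0.876).

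Among transporters, the nitrate transporter gene NRT2.3 (LOC4324249) was the only 1 of 3 nitrate transport genes bright enough to test. It had 178, 89.2 and 302 on the synergid arrays, against 158, 123 and 56.4 on the antipodal arrays, with overlap (limma adjusted p = 0.850). The proline transporter gene OsproT (LOC4333560) had a mean of 1714 ± 361 in synergids, against 1707 ± 599 in antipodals (SD, n = 3 each; log2 difference 0.06, SE 0.39, limma adjusted p = 0.981). DUR3 (LOC4349520), a urea transporter gene named after its values were seen, was too dim to test. It had 1.53, 3.57 and 6.78 on the synergid arrays, against 51.8, 67.6 and 13.0 on the antipodal arrays, without overlap. No gene for nitrite reductase, asparagine synthetase or the molybdenum cofactor was found by name.

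**Figure D5:**
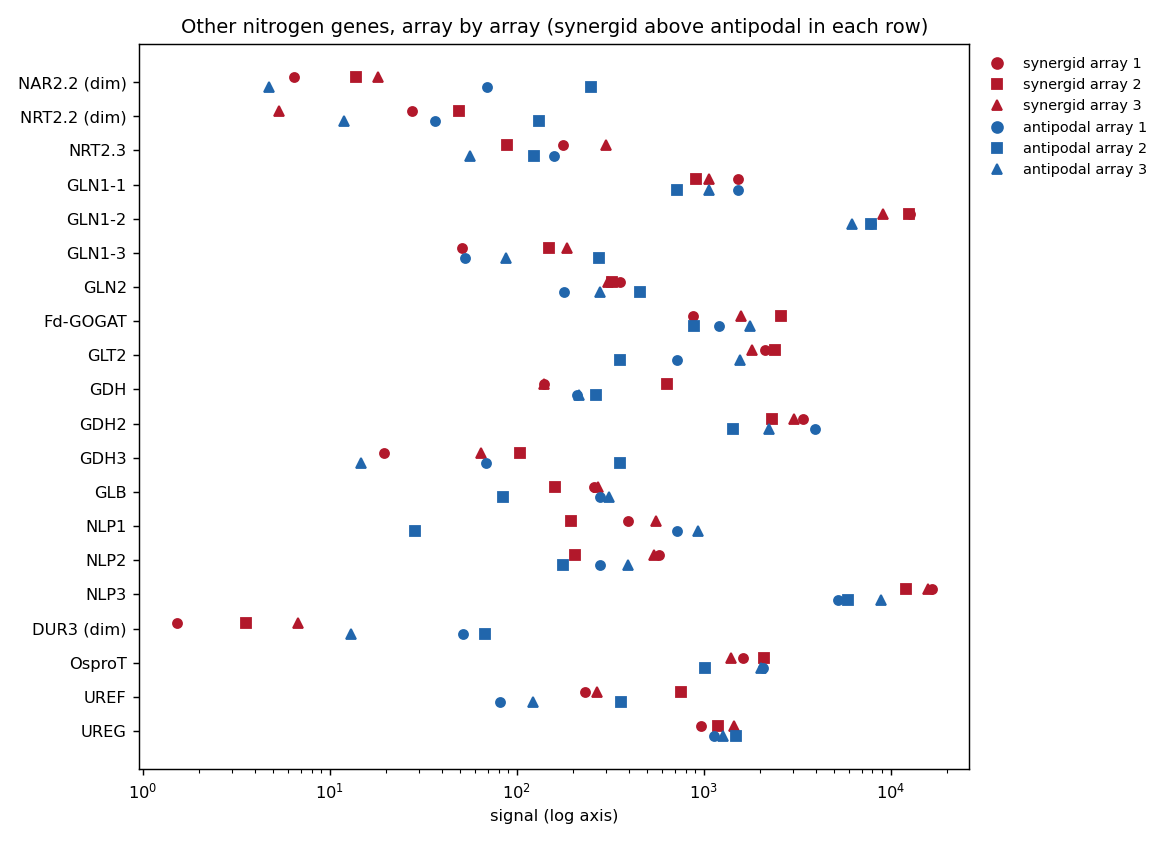
Signal (log axis, arbitrary units) of the 20 other nitrogen genes on each array, with the synergid arrays in red above the antipodal arrays in blue in each row and dim marking genes left out of the fit. GLN1-2, GLT2 and NLP3 lie higher on every synergid array than on any antipodal array, DUR3 lies lower, and the other 16 overlap. Groups did not overlap, with synergids higher, for 6.17% of all tested probe sets, and with synergids lower for 7.79% of all non-control probe sets.

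Markers of surrounding tissue were followed on the same arrays, and their part in the differences above was not tested. Of 6 ovule sporophyte genes, all tested, 4 had a log2 difference above 0, and their summed signal was 11058 to 15636 on the synergid arrays and 5099 to 12428 on the antipodal arrays. For 15 epidermis and meristem genes, which include lipid transfer protein genes, the sum was 48198 to 58919 and 30217 to 39878 for the same cell types. Without LTP-2 it was 37131 to 43399 in synergids and 30132 to 39859 in antipodals, which overlapped, and of the 13 tested genes of this list 7 had a log2 difference above 0 and 6 below. It was 4836 to 10478 in synergids and 6942 to 12869.6 in antipodals for 7 green tissue genes, with the Rubisco small subunit gene RBCS1 among the dim ones. Most of that sum came from CAB2R, with 4363, 3742 and 8698 on synergid arrays 1, 2 and 3, against 5581, 11253 and 8739 on antipodal arrays 1, 2 and 3. For 6 root and vasculature genes the sum was 17169.7 to 25179 in synergids and 19418 to 29315 in antipodals. Most of it came from OsSWEET11, with 24372, 21774 and 16206 on the synergid arrays, against 28720, 20096 and 18707 on the antipodal arrays. In limma, 0 genes of the ovule, green tissue, and root and vasculature lists were called and 1 of the epidermis list, LTP-2, named after its values were seen, with 4930, 17096 and 11066 on the synergid arrays, against 85.4, 19.8 and 166 on the antipodal arrays. No gene of these lists had a signal of 0 on any array, but RBCS1 had 1.55 on synergid array 1. Without detection calls a signal above 0 does not show that a gene was expressed. At an unadjusted p under 0.05 there were 4 of 6 tested ovule genes, 0 of 6 green tissue genes, 1 of 6 root and vasculature genes and 4 of 13 epidermis and meristem genes, against 8.30% of all tested probe sets. The 4 ovule genes, MADS13, MADS21, MADS29 and MADS3, named after their values were seen, had log2 differences between 1.18 and 1.82. The remaining ovule genes were DL, at -0.75 (SE 0.72), and MADS58, at -0.03 (SE 0.42).

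The genes most like NIA1 and OsAMT1;1 over the 6 arrays were looked for among 2212 other tested genes with a name, by Pearson's r of the log2 values, as a description only. All such values share the same 6 arrays, so a difference between the cell types in the same direction can raise r. The brighter probe sets of NIA1 and OsAMT1;1 had an r of 0.948 with each other. OsAMT2;1, also lower in synergids on average but with overlap, had an r of 0.559 with NIA1 and 0.396 with OsAMT1;1. What raised or lowered each r was not tested. For NIA1 the 5 highest were IAA1 (r = 0.988), an Aux/IAA repressor of auxin response at LOC4323871, ORC5 (0.986), a subunit of the origin recognition complex, OsPDIL5-4 (0.982), CLPB-C (0.981), a ClpB chaperone, and MKRN (0.980). An r of at least 0.95 was reached by 17 genes, or 0.769%. For OsAMT1;1 they were ADK-B (0.995), an adenylate kinase, AARE1 (0.984), OsPP2C58 (0.984), a protein phosphatase, IAA1 (0.982) and ILL7 (0.982), and 13 genes or 0.588% reached 0.95. IAA1 was in both lists.

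For OsAMT2;1 the most alike were PETE (0.994), the plastocyanin gene, OsC3H40 (0.989), PCF7 (0.983), CLA1 (0.979) and GRXC10 (0.973). For OsAMT3;1, represented by Os.50570.1.S1_x_at, they were cpdk (0.987), MT2C (0.985), a metallothionein gene, EG2 (0.982), HDR1 (0.982) and Osr40c1 (0.977). Its other probe set, Os.25771.1.S1_at, differed in the opposite direction and had an r of 0.19 with this one. These genes are therefore given for Os.50570.1.S1_x_at only. For OsAMT2;2 they were GWD3 (0.989), ADI1 (0.980), CLE202 (0.961), OsTLP12 (0.956) and DJC79 (0.955), and for OsAMT2;3 they were SCS-alpha (0.972), AO-4 (0.965), HDA703 (0.964), OsWNK7 (0.962) and G1L9 (0.949). For the dim OsAMT1;2, OsAMT3;2 and OsAMT3;3 the highest r was 0.970, 0.981 and 0.958.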

How the data were processed

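Transcripts were measured on Affymetrix rice arrays in synergid cells and antipodal cells, 3 arrays each. For each probe set on each array the authors deposited 1 signal intensity on a linear scale. MAS5, which summarises each array by itself, and GCOS 2.0 are named in the submitters' processing notes. The trimmed mean of the deposited intensity was 500.1 on each array, so the arrays had been scaled to a common level. No header or label records a further step.

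Intensities were transformed to log2(signal + 16), and the dimmest 40% of probe sets by mean over all 6 arrays (below a signal of 36.7) and 123 control probe sets were left out, which left 34355. Probe sets were fitted with lmFit and eBayes (trend on mean intensity) of limma 3.58.1, run in R 4.3.3, with the cell type as the only term and Benjamini-Hochberg adjustment over all tested probe sets. The fit was also run on simulated data. Differences are synergid minus antipodal, and a call is an adjusted p under 0.05. The number of arrays limits the precision.

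Gene names came from GEO's platform annotation, brought up to date by gene number through the RefSeq table of assembly ASM3414082v1: 22436 probe sets have 1 gene. A gene was represented by its probe set with the highest mean, except that all probe sets of NIA1 and the ammonium transporters are given. No genome build is stated for the probe sets, so no coordinates are given, and no sequences are printed. The genes and the lists were chosen with earlier results of these data known. The nitrogen list was made by symbol pattern and matched 38 genes; 18 whose names belong to other families, such as endoglucanases and invertases, were left out. The named genes were all probe sets of NIA1 and the transporters, at most the 2 highest and 2 lowest called genes of each nitrogen list or, with none called, the gene with the highest mean, and the 5 genes most like each member over the arrays, printed here for the members that were tested. Marker lists were also made by symbol pattern; central cell and endosperm and pollen lists each matched 1 gene, which was not called, and no egg cell or synergid marker matched. Figures were drawn with matplotlib 3.10.9. The 13 other settings were pseudocounts of 1 and 64, no filter, quantile normalisation, median centring, no intensity trend, the replicate number as a block, and leaving out each array; 2 blocks for technical groupings were added after the data were seen. The same probe sets were tested in each setting but the one with no filter.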

Additional observations from a re-analysis of the deposited data

How the results depend on the processing

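Over 15 other settings the log2 difference kept its sign for the brighter probe sets of NIA1 (-4.09 to -2.25) and OsAMT1;1 (-2.61 to -1.76) and for OsAMT2;1 (-1.84 to -0.66). No filter, no intensity trend, the replicate block and the number-format block cannot change a log2 difference here. They keep every sign by construction. The sign was also kept in all 15 by OsAMT1;2, OsAMT3;2, the dim OsAMT1;1 probe set and both OsAMT3;1 probe sets, whose signs are opposite. OsAMT2;2 kept its sign in 10, OsAMT3;3 in 13, and OsAMT2;3 and the dim NIA1 probe set in 14 each. Relative to the median of all tested probe sets, which was -0.08 as deposited, 0.04 after quantile normalisation and 0.37 after median centring, NIA1 stood at -3.10, -3.23 and -3.10 and OsAMT1;1 at -2.13, -2.28 and -2.13. Median centring shifts every probe set alike, so its values relative to the median equal those as deposited by construction. The number of called probe sets of these genes, 0 as reported, was 1 with a pseudocount of 64 and 1 with no filter (NIA1). It was 2 with the replicate block, 2 with the number-format block and 2 with the poly-A block (NIA1 and OsAMT1;1), and 0 to 2 with single arrays left out. These counts use the values known when the genes were chosen, so here too nothing is read from them. Nitrogen genes called stayed at 0 in all 15. Over all probe sets, calls numbered 110 (88 higher and 22 lower in synergids), and 31 (31 and 0) without an intensity trend, 284 (137 and 147) with the number-format block, 235 (113 and 122) with the poly-A block, and 42 to 317 (41 to 123 and 1 to 221) with single arrays left out. Calls lower in synergids were 10 with a pseudocount of 1, 42 with no filter, 3 after quantile normalisation and 1 after median centring. The replicate number as a block gave 293 calls (149 and 144); the labels do not say that it pairs arrays, and deviations of same-numbered arrays correlated at 0.22, 0.12 and 0.02, with synergid array 3 closer to antipodal array 2 (0.0216) than to array 3 (0.0197). Probe sets of low signal limit what can be said of OsAMT1;2, OsAMT3;2 and OsAMT3;3. The cause of these changes was not tested.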
